A study of Mus musculus with 12 samples.

Results

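The regions described are the H3K27ac peaks of NIH3T3 cells that coincide with Ctr9 and have no H3K27ac counterpart in mouse embryonic stem cells (mESCs). They were chosen by the positions of called peaks, and thus by ChIP-seq signal of H3K27ac in both lines and of Ctr9 in NIH3T3 cells. An NIH3T3 H3K27ac peak was included when it overlapped an NIH3T3 Ctr9 peak by at least 1 bp and overlapped no H3K27ac peak of mESCs. This gave 1977 regions among the 34241 H3K27ac peaks of NIH3T3 cells, which is 7.68% of the 25752 peaks without an overlapping mESC peak. They are called NIH3T3-only peaks with Ctr9 here. The comparison groups were 23775 NIH3T3-only peaks without Ctr9, 2362 peaks shared with mESCs that had Ctr9 in NIH3T3 cells, and 6127 shared peaks without Ctr9 (23756 and 6120 of the peaks without Ctr9 lay on assembled chromosomes and were described further).

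The study asked whether Ctr9 and H3K27ac together mark active enhancers, first in mESCs of the E14 line, pluripotent cells of the early mouse embryo, and then in NIH3T3 cells, an established line of mouse fibroblasts. Both lines were grown in the same medium with serum and LIF, a cytokine that keeps mESCs undifferentiated. For Ctr9, both carried GFP fused to the end of the endogenous gene, the ChIP used an antibody against GFP, and a sorted pool of GFP-positive cells was used, not a clone. ChIP-seq of H3K27ac and RNA-seq came from the same 2 lines, and Nelfa-GFP, RNAPII Ser5p and RNAPII Ser2p were profiled in mESCs. Each library was made once, so no difference between the cell types could be tested, and the 95% exact Clopper-Pearson intervals given with shares cover counting error only. For regions, the intervals treat each as independent, although 182 Ctr9 peaks met several regions, so they can be too narrow. The RNA-seq libraries matched their labels by 12 fibroblast markers, among them Col1a1, Vim and Thy1, whose TPM values added up to 8181 in NIH3T3 cells and 250 in mESCs, and all 12 reached a TPM of 1 in NIH3T3 cells. The sum of 8 pluripotency markers was 4.47 in NIH3T3 cells, of which Klf2 made up 3.48, and 6768 in mESCs, and Pou5f1 and Sox2 were listed at 0 in NIH3T3 cells. Markers of epithelium, endothelium and skeletal muscle added up to less than 1 TPM each in NIH3T3 cells, and those of blood to 3.82, nearly all of it Cd68.

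Acetylation of histone H3 at lysine 27 is deposited by p300 and CBP at active promoters and enhancers, and it differs between cell types mostly at enhancers far from gene starts. Ctr9 is a scaffold subunit of the Paf1 complex (Paf1C), which travels with RNA polymerase II, takes part in pausing and elongation, and supports histone modification along transcribed genes. Fibroblasts are known for strong expression of genes of the extracellular matrix, the actin cytoskeleton and growth factor signalling, whereas mESCs express the pluripotency factors.

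The stretch of 300 bases around the H3K27ac summit, the base with the most fragments, is shown for 6 of these regions. The first 3 lie in fragments that the study cloned for reporter assays as H3K27ac and Ctr9 positive in NIH3T3 cells only, and the others are the strongest regions at a growth factor gene, a chromatin protein gene and a collagen gene. The sequences are from the reference assembly GRCm38 (mm10), plus strand. Capitals mark matches on either strand to GGAATG, the core that TEAD factors bind, or GGGCGG, the core of KLF and SP factors. TGANTCA, the core that AP-1 binds, was searched in the same way and had no match in these 6 stretches.
Cloned region 8, chr15:85669078-85669377: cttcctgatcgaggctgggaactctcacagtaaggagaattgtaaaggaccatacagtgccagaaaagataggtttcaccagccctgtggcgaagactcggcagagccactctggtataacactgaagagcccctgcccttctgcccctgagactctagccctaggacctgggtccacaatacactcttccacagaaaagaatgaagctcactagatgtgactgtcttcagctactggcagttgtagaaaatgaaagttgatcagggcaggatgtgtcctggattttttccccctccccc
Cloned region 3, chr12:75702054-75702353: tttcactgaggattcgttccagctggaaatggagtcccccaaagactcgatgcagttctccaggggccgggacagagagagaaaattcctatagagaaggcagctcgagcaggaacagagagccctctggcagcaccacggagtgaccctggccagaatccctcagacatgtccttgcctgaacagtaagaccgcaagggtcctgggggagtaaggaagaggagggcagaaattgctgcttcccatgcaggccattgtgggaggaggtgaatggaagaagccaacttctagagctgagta
Cloned region 5, chr17:17827150-17827449: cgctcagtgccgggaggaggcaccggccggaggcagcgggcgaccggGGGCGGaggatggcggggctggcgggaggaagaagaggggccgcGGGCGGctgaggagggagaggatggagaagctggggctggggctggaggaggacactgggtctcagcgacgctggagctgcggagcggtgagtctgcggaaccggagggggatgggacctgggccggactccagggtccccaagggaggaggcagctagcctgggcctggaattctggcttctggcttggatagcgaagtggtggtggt
Fgf7, chr2:126034960-126035259: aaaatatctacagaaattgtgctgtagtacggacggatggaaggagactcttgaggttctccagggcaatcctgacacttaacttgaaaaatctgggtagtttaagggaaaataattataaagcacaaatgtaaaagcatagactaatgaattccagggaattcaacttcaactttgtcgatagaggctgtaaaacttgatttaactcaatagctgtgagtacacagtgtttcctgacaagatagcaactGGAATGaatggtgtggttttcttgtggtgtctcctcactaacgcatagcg
Hmga2, chr10:120475747-120476046: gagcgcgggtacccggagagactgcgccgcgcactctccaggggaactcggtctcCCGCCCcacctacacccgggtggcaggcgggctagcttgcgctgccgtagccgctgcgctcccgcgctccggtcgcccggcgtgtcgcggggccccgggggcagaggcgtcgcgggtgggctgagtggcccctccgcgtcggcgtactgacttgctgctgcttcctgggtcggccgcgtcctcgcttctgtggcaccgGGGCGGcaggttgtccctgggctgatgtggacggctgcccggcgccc
Col1a2, chr6:4506460-4506759: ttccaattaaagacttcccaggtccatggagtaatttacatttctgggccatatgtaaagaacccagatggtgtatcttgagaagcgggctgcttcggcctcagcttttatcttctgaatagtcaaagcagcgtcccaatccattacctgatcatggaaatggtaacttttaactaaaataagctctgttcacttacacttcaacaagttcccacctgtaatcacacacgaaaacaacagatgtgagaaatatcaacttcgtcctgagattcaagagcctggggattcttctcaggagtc
Cloned region 8 holds the most enriched of all 1977 regions, with an H3K27ac fold enrichment of 46.5 over the local background at its summit. It lies in the non-coding gene Lncppara, and its H3K27ac and Ctr9 summits were 30 bp apart. Region 3 was intergenic, 32.7 kb upstream of the start of Wdr89, and region 5 lay 142 bp downstream of the start of Spaca6. The GC content of the stretches ran from 39.0% at Fgf7 to 75.3% at Hmga2, and both of these peaks covered a gene start.

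NIH3T3-only peaks with Ctr9 were moderately enriched for H3K27ac, with a median fold of 7.65, quartiles of 4.83 and 15, and a lowest value of 2.56. The median was 5.66 for NIH3T3-only peaks without Ctr9, 22.1 for shared peaks with Ctr9 and 12.6 for shared peaks without. The median width was 634 bp, with quartiles of 334 and 1277 bp and a largest width of 14222 bp. NIH3T3-only peaks without Ctr9 had a median width of 390 bp and shared peaks with Ctr9 one of 1316 bp. The mean width of the regions was 951 bp. These values are a description, because the same peaks chose the regions and a wider peak has more room to overlap. When all NIH3T3-only peaks were put into 5 classes of equal size (quintiles) by fold, Ctr9 was present at 5.67%, 5.17%, 5.09% and 6.22% of the first 4 quintiles and at 16.3% of the strongest. The median GC content around the summit was 52.0%, with 49.7% for NIH3T3-only peaks without Ctr9 and 65.7% for shared peaks with Ctr9.

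**Figure D1:**
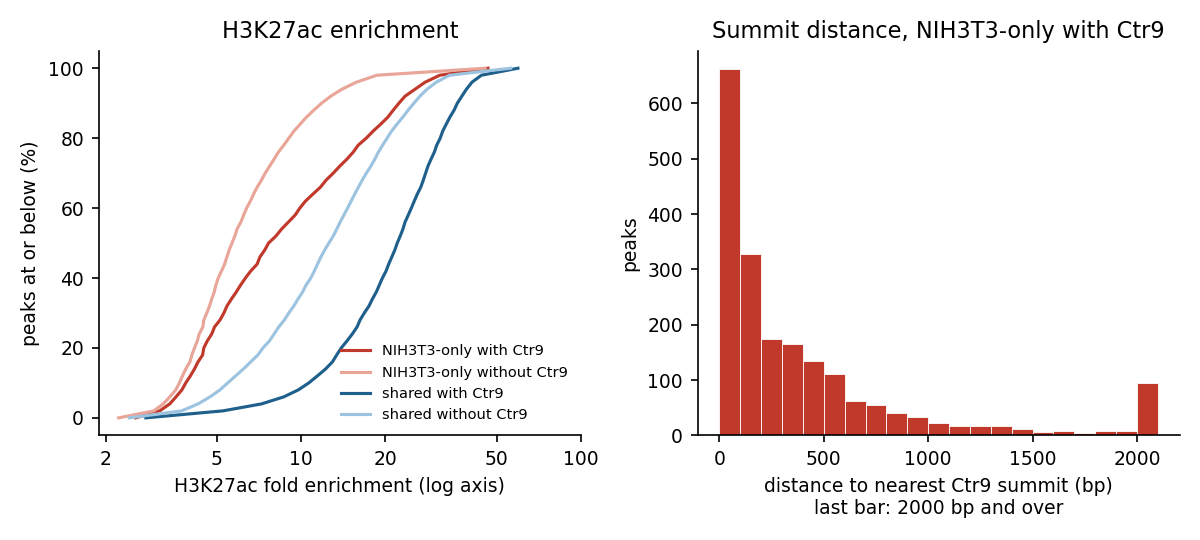
Left, cumulative share of peaks by H3K27ac fold enrichment (log axis) in the 4 groups of NIH3T3 H3K27ac peaks. Right, number of NIH3T3-only peaks with Ctr9 by distance in bp from the H3K27ac summit to the nearest summit of an overlapping Ctr9 peak, in bars of 100 bp. The NIH3T3-only peaks with Ctr9 (median fold 7.65) lie between those without Ctr9 (5.66) and the shared peaks with Ctr9 (22.1), and their median summit distance is 198 bp.

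Peaks at the edge of the Ctr9 criterion were weaker than the regions as a whole. The smallest overlaps with a Ctr9 peak were 2 bp near Pak3, 4 bp near Bcl2l14 and 5 bp near Sdc4, with H3K27ac folds of 9.89, 7.02 and 11.9. Just outside, 3 peaks near Tfb2m, Stk24 and Anxa5 missed a Ctr9 peak by 2 bp, with folds of 4.01, 4.49 and 13.6. In all, 39 regions overlapped Ctr9 by 50 bp or less (median fold 4.82) and 30 peaks lay within 50 bp of a Ctr9 peak without touching it (5.28). On the mESC side, the 127 regions within 200 bp of an mESC H3K27ac peak had a median fold of 8.39, and the 6 peaks outside the rule that overlapped one by 50 bp or less had 4.12. In all, 433 regions (21.9%) lay within 1 kb of an mESC H3K27ac peak, and 1114 (56.3%) were more than 10 kb away from one. The mESC list was the smaller one, with 19417 peaks and a median fold of 3.97, so a weak mESC signal below the peak threshold would count as absent.

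The Ctr9 signal at these regions was close to that of Ctr9 peaks in general. The regions touched 2084 different Ctr9 peaks of the 22016 in NIH3T3 cells, with a median fold of 4.37 and a median width of 477.5 bp, whereas all Ctr9 peaks had 4.27 and 400 bp. Most regions, 1715, met 1 Ctr9 peak, and 262 met more than 1, up to 8. A Ctr9 summit lay inside the H3K27ac peak at 1369 regions (69.2%), and at 86.2% of the shared peaks with Ctr9. The nearest summit among the Ctr9 peaks that overlapped a region was at a median distance of 198 bp, with quartiles of 66 and 514 bp. This summit lay within 100 bp at 667 regions (33.7%) and more than 1000 bp away at 211 (10.7%). Summits of Ctr9 peaks that did not overlap the region were not counted, although some lay nearer. Shared peaks with Ctr9 had a median distance of 237.5 bp.

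A part of the regions sat inside wide Ctr9 domains. At 152 regions (7.69%) the strongest Ctr9 peak was at least 5 kb wide. The median region was covered by Ctr9 over 70.3% of its width, and 528 (26.7%) were covered whole. Single Ctr9 peaks with 5 regions each were found at Fgf7 (11530 bp wide, fold 9.81) and in the non-coding gene 3110039I08Rik (6788 bp wide, fold 5.60). In such places acetylation overlapped a Ctr9-covered stretch without a common summit. For the regions at the 11530 bp peak of Fgf7, the summit distances reached 6972 bp. Regions inside another Ctr9 peak at Fgf7, 56435 bp wide, had distances of up to 47831 bp to its summit, and a summit of a neighbouring Ctr9 peak lay nearer.

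Regions were then placed on the annotation by their H3K27ac summit. NIH3T3-only peaks with Ctr9 were mostly intragenic: 771 (39.0%) lay in introns of protein-coding genes, 592 (29.9%, 27.9% to 32.0%) within 1 kb of a gene start, 167 (8.45%) in exons and 95 (4.81%) within 1 kb of a gene end. Another 94 (4.75%) lay in genes that do not code for protein and 258 (13.1%) were intergenic. The share at gene starts was 19.7 times that of an even spread over the genome. It was 21.5% for NIH3T3-only peaks without Ctr9 and 79.7% for shared peaks with Ctr9. The intergenic share was 26.4% for NIH3T3-only peaks without Ctr9. Place is given as a description, because the rule chose regions by Ctr9 peaks, which the study mapped mostly to protein-coding genes. The same holds for the distances to gene starts below. Introns took an equal part of both kinds (39.0% and 39.4%). With a window of 2.5 kb around gene starts, 46.4% of the regions lay there.

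**Figure D2:**
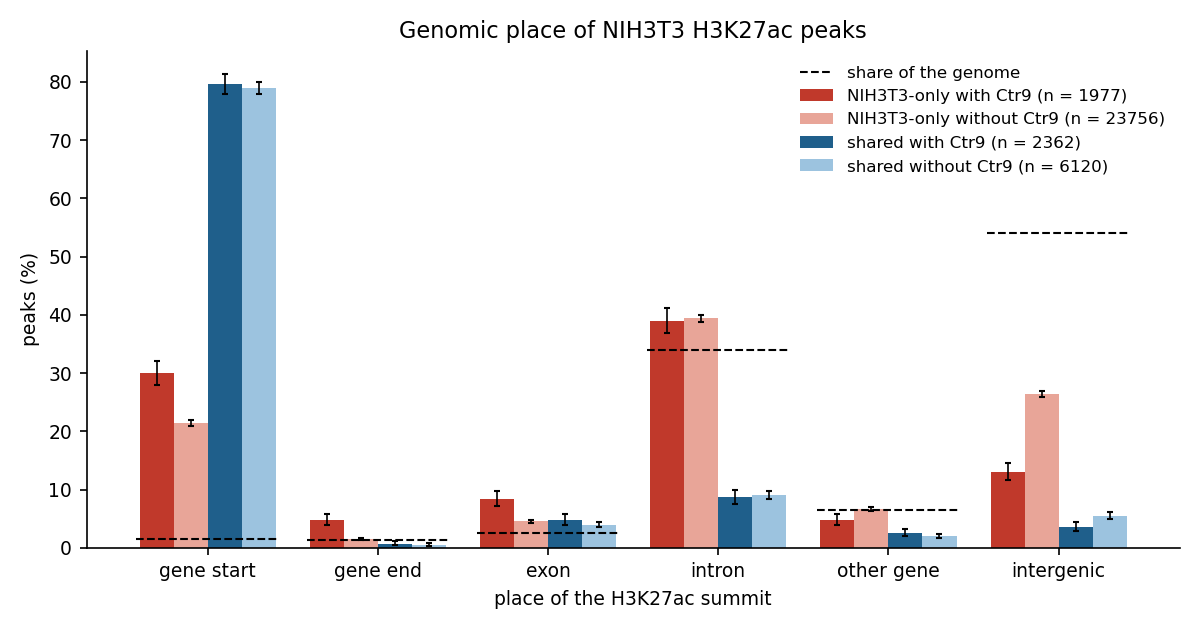
Percentage of H3K27ac peaks (y axis) by place of the summit (x axis) in the 4 groups of NIH3T3 H3K27ac peaks. Bars are shares with 95% exact Clopper-Pearson intervals, and dashed lines give the share of the genome. NIH3T3-only peaks with Ctr9 reach 29.9% at gene starts and 4.81% at gene ends, whereas NIH3T3-only peaks without Ctr9 reach 21.5% and 1.54%.

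Place went with the shape of the peaks. Regions at gene starts had a median H3K27ac fold of 12.2 and a median width of 914 bp. Regions in introns had 6.22 and 508 bp. Those at gene ends were the weakest and narrowest, with 4.49 and 338 bp, and met the widest Ctr9 peaks, at a median of 1398 bp. The median distance to the nearest start of a protein-coding gene was 3.19 kb, compared with 17.8 kb for NIH3T3-only peaks without Ctr9 and 0.314 kb for shared peaks with Ctr9. Of the 1977 summits, 1464 lay downstream of that start and 513 upstream. A distance over 50 kb was found for 286 regions (14.5%, 12.9% to 16.1%), and for 29.3% of NIH3T3-only peaks without Ctr9.

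The Ctr9 list of mESCs was not used by the rule. It had a peak at 580 of the regions (29.3%, 27.3% to 31.4%), although none of them overlapped mESC H3K27ac. Over all NIH3T3 H3K27ac peaks this share was 11.7%. It was 4.64% for NIH3T3-only peaks without Ctr9, 16.8% for shared peaks without Ctr9 and 54.6% for shared peaks with Ctr9. The intervals do not overlap. The groups also differed in median width (390, 769 and 1316 bp in this order, and 634 bp for the regions), and a wider peak has more room to overlap. The share depended on place. At gene ends 67 of 95 regions (70.5%, 60.3% to 79.4%) had mESC Ctr9, in exons 44.9%, at gene starts 30.2% and in introns 21.8%.

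The other mESC lists met fewer of the regions. RNAPII Ser5p, the form that dominates near gene starts, had a peak at 144 (7.28%, beside 6.45% of all NIH3T3 H3K27ac peaks). RNAPII Ser2p, the elongating form, had one at 94 (4.75%, beside 1.40%). NELFA, a subunit of the pausing factor NELF, had one at 62 (3.14%, beside 5.42%). For shared peaks with Ctr9, Ser5p was also the most frequent (41.6%), and NELFA (34.6%) stood above Ser2p (10.1%). NIH3T3-only peaks without Ctr9 were below 1% for each of the 3.

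RNA-seq, which the rule did not use, was read at the nearest protein-coding gene of each region. In bulk RNA, fewer cells with a transcript and less RNA per cell cannot be told apart. The 1977 regions fell to 1264 genes, of which 1140 had a TPM of at least 1 in either line, as did 56.4% of all protein-coding genes. A gene was called higher or lower when TPM + 1 differed at least 2-fold. Of the 1140, 455 (39.9%, 37.1% to 42.8%) were higher in NIH3T3 cells, and this was so for 20.0% of all 12379 such genes. Lower in NIH3T3 cells were 97 (8.51%), beside 23.8% of all genes. A 4-fold higher TPM was found for 269 (23.6%), beside 8.81%. The median log2 difference was 0.54, with -0.13 over all genes. The median TPM of these genes was 25.4 in NIH3T3 cells and 12.6 in mESCs. When the 433 regions within 1 kb of an mESC H3K27ac peak were left out, the median log2 difference was 0.98 and 49.9% of the nearest genes were higher.

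**Figure D3:**
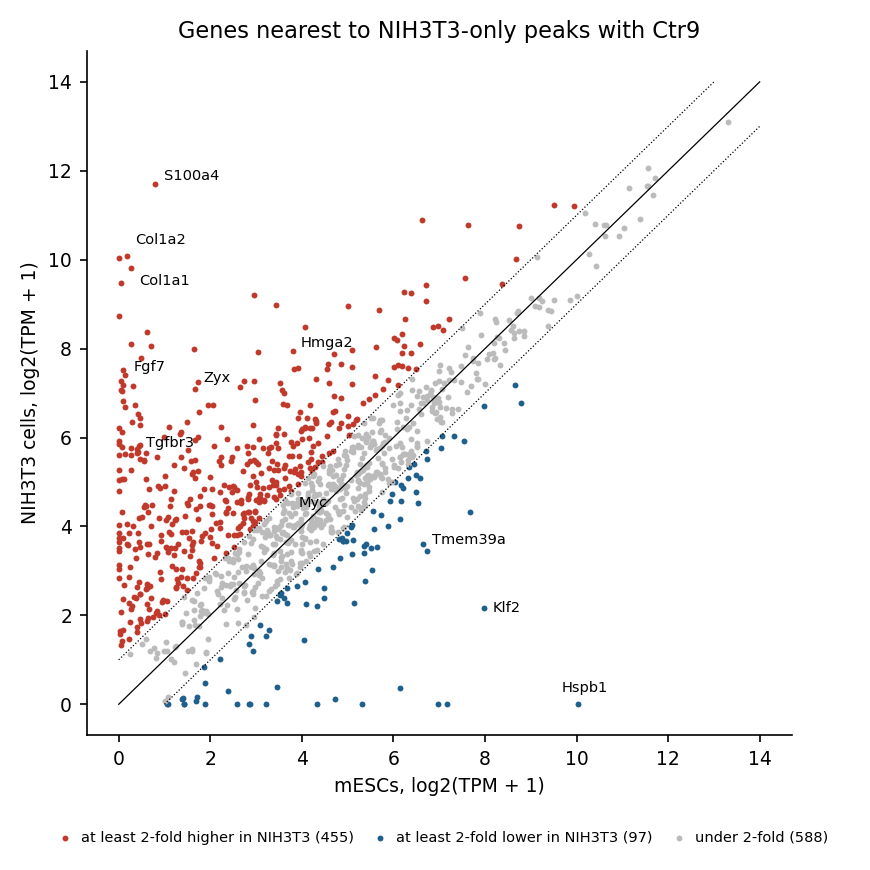
TPM of the 1140 protein-coding genes nearest to an NIH3T3-only peak with Ctr9, in mESCs (x axis) and NIH3T3 cells (y axis), both as log2(TPM + 1), 1 point per gene. The solid line marks equal values and the dotted lines a 2-fold difference, and 455 genes lie above and 97 below these lines.

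The presence of Ctr9 was compared at like H3K27ac enrichment, since NIH3T3-only peaks without Ctr9 were weaker. Among the 6567 genes nearest to those, 29.4% were higher in NIH3T3 cells and 15.2% lower. The groups of genes were not separate, as 763 of the 1140 genes near a region also had a peak without Ctr9 and count on both sides, here and in each share by quintile, band or place where they have both. When genes were split after these values were seen, 47.6% (44.0% to 51.2%) of the 763 with both kinds were higher, 24.4% (20.2% to 29.1%, 92 of 377) of those with only peaks with Ctr9, and 27% (25.8% to 28.1%, 1565 of 5804) of those with only peaks without. Among genes with a single kind, the share was thus not higher with Ctr9, and the intervals overlapped. In the weakest quintile of NIH3T3-only peaks by fold, the share of higher genes was 29.5% (23.5% to 36.0%) with Ctr9 and 35.2% (33.4% to 37.1%) without. Quintiles 2, 3 and 4 gave 33.0%, 38.2% and 41.6% with Ctr9 and 36.2%, 35.0% and 35.9% without, with overlapping intervals. In the strongest quintile it was 53.9% (49.9% to 57.9%) with Ctr9 and 41.9% (40.0% to 43.8%) without. Within that quintile the peaks with Ctr9 were still the stronger ones (median fold 16.6 and 12.2). In bands with other limits, which were chosen after these values were seen, the intervals were apart for folds of 5 to 10, a wide band that takes in quintiles 3 and 4 with their overlapping intervals, with 39.7% (35.3% to 44.3%) with and 32.0% (30.7% to 33.4%) without Ctr9, and for folds of 10 to 15, with 56.0% (49.4% to 62.4%) and 40.6% (38.3% to 43.0%). They overlapped in the bands above, with 57.3% and 51.3% for folds of 15 to 20, 58.2% and 57.5% for 20 to 30, and 54.8% and 50.0% for 30 to 50. A gene counts in each quintile in which it has a peak, so that shares by quintile can exceed the pooled one. Lower genes made up 5.53% (2.89% to 9.46%) with Ctr9 and 14.6% (13.3% to 16.0%) without in the weakest quintile. In the strongest quintile they made up 5.54% (3.86% to 7.65%) and 9.99% (8.86% to 11.2%). Quintiles 2, 3 and 4 gave 11.5%, 11.6% and 10.7% with Ctr9 and 14.1%, 14.6% and 13.7% without, with overlapping intervals. The intervals for lower genes also overlapped in every band.

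**Figure D4:**
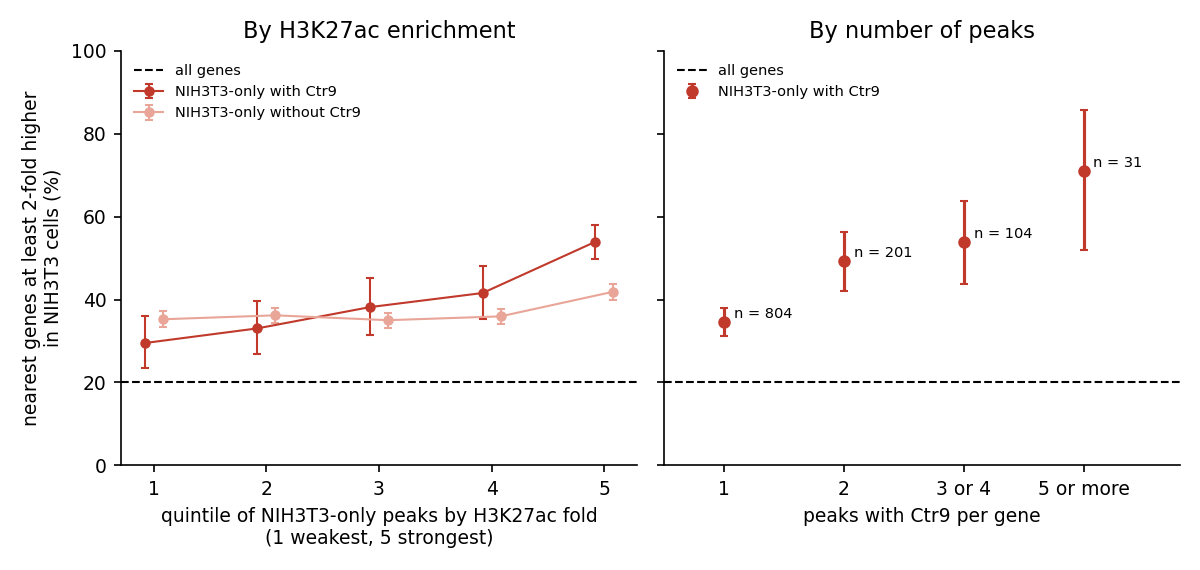
Percentage of nearest genes with at least 2-fold higher TPM in NIH3T3 cells (y axis), with 95% exact Clopper-Pearson intervals and a dashed line for all genes (20.0%). Left, by quintile of H3K27ac fold for NIH3T3-only peaks with and without Ctr9 (53.9% and 41.9% in the strongest quintile), where a gene with both kinds counts on both sides. Right, by the number of NIH3T3-only peaks with Ctr9 per gene, from 34.6% for 1 to 71.0% for 5 or more.

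Genes with several regions were higher more often. Peaks without Ctr9 near the same genes were left out of this count, and several regions can share the same Ctr9 peak. A single region was nearest to 894 genes, and 34.6% of those with a TPM of at least 1 were higher in NIH3T3 cells. With 2 regions the share was 49.3%, with 3 or 4 it was 53.8%, and with 5 or more it was 71.0% (52.0% to 85.8%, 22 of 31 genes), with no gene lower. At gene starts 47.6% (43.2% to 52.0%) of the genes were higher, and 34.1% (32.6% to 35.6%) at the starts with NIH3T3-only peaks without Ctr9. Elsewhere the shares were 39.0% and 32.1%. Enrichment was not matched here, with median H3K27ac folds of 12.2 with Ctr9 and 6.90 without at gene starts, and 6.52 and 5.43 elsewhere. Regions without mESC Ctr9 had 48.3% higher genes (389 of 806), and regions with mESC Ctr9 had 22.9% (93 of 407, 18.9% to 27.2%), close to the 20.0% of all genes.

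The genes nearest to the most regions were led by Myc with 19. Among those that followed were Hmga2, Klf14 and Tgfbr3 with 15 each, Ubash3b with 12, Asap1 with 10, Dnaja3 and Fgf7 with 9 and Ext1 with 8. Hmga2, an architectural chromatin protein, had a TPM of 244 in NIH3T3 cells and 12.9 in mESCs. Fgf7, a fibroblast growth factor that acts on epithelium, had 168 and 0.102, and Tgfbr3, the TGF-beta co-receptor betaglycan, had 50.4 and 0.336. Asap1, an Arf GTPase activator, had 41.2 and 7.21, and Ext1, a heparan sulfate polymerase, had 74.4 and 15.9. Myc itself had 25.4 and 12.51, just under the 2-fold limit. Klf14 and Ubash3b were below a TPM of 1 in both lines. The nearest coding gene was in several of these cases not the gene that held the regions, as described for the non-coding genes.

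At Fgf7, the 9 regions were spread over 33.5 kb, from 2.04 kb upstream of the start into the gene. The widest covered the start (7429 bp, fold 14.3), and 8 narrower ones in the gene had folds of 3.27 to 6.24. They overlapped 5 Ctr9 peaks, of which the widest was 56435 bp with a fold of 25.1 and ran past the end of the gene. At Hmga2, the peak over the start was 4468 bp wide with a fold of 29.7, and a group of intronic regions 50.2 to 54.6 kb downstream reached 26.3. Col1a2 had 3 regions, with folds of 17.9 at 1.80 kb, 13.2 at 15.8 kb upstream and 3.39 at 5.15 kb. Zyx, which encodes the focal adhesion protein zyxin, had 6, of which 2 at the start had folds of 20.4 and 19.8. Peaks without Ctr9 stood beside these, upstream of Fgf7 and at the start of Col1a2 among other places.

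**Figure D5:**
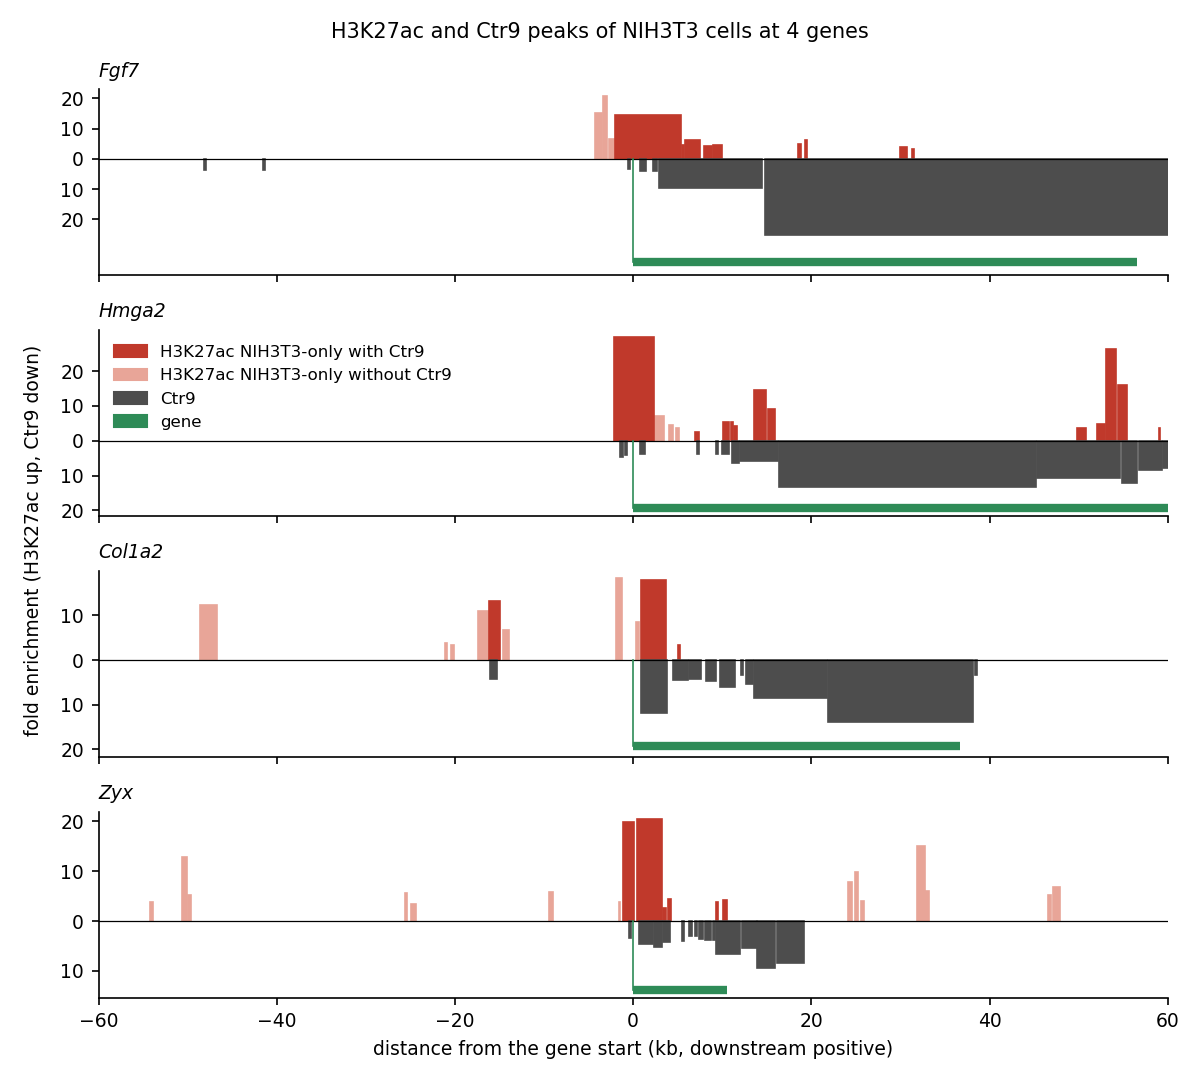
H3K27ac peaks (upward, red with Ctr9 and pale red without) and Ctr9 peaks (downward, dark grey) of NIH3T3 cells within 60 kb of the start of Fgf7, Hmga2, Col1a2 and Zyx. The x axis is the distance in kb from the gene start in the direction of transcription and the y axis the fold enrichment, drawn in both directions from 0. Green bars are the genes, and the widest Ctr9 peak, 56435 bp at Fgf7, begins 14.8 kb downstream of its start.

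Among the nearest genes of the 10 most enriched regions, 2 were higher in NIH3T3 cells, 1 was lower, 4 were within 2-fold and 3 were below a TPM of 1 in both lines. Cloned region 8 (fold 46.5) had Ppara as its nearest coding gene, 65.8 kb away and listed at 0 in NIH3T3 cells, whereas its host Lncppara had a TPM of 2.06 in NIH3T3 cells and was listed at 0 in mESCs. An exonic region of Arhgap23 had a fold of 43.7, with TPM values of 9.0 and 10.6 in NIH3T3 cells and mESCs. The start of Gm49361, in a region that Lats2, a kinase of the Hippo pathway, overlaps, had 43.4, and Lats2 had TPM values of 13.3 and 1.34. Slc25a24, a mitochondrial carrier, had a fold of 40.3 and TPM values of 64.0 and 0.972, and Ube2j1, a ubiquitin-conjugating enzyme, had 37.6 and values of 28.5 and 8.78. Eif4e, the cap-binding factor, had 38.3 and values of 109 and 98.8. Cnksr3 had 38.2 and values of 7.46 and 5.50, and Lgals3, which encodes galectin-3, had 37.3 and values of 199 and 322. Tmem39a (fold 38.5) went the other way, with 11.2 in NIH3T3 cells and 99.5 in mESCs. Gsg1 (40.4) was below 1 in both.

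Of the nearest genes with a 4-fold higher TPM in NIH3T3 cells, the 10 with the highest TPM were the following. S100a4, a calcium-binding protein of motile cells, had a TPM of 3337 in NIH3T3 cells and 0.737 in mESCs, with 1 region of fold 19.9. S100a6 had 1760 and 196, and S100a11 had 1722 and 429. Lgals1, which encodes galectin-1, had 1911 and 97.6, and Anxa2, an annexin, had 686 and 103. Col1a2 and Col1a1, the chains of type I collagen, had 1082 and 901 in NIH3T3 cells and below 1 in mESCs, with 3 and 5 regions. Lox, which cross-links collagen, had 716 and 0.0299 with 3 regions, and Sparc had 766 and 187 with 2. Il1rl1, the receptor of interleukin 33, had 1055 and 0.0106 with 2 regions.

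A region did not always lie by a gene of higher level. Of the 5 genes with the lowest difference, Hspb1, a small heat shock protein, had a TPM of 1049 in mESCs and was listed at 0 in NIH3T3 cells. Its region was 19.9 kb downstream of its start, at the end of another gene, with a fold of 4.36. Ckb, the brain creatine kinase, had 142 in mESCs, and Epcam, an epithelial adhesion protein, had 125, and both were listed at 0 in NIH3T3 cells. Their regions lay at the gene end of Ckb (fold 15) and 22.3 kb upstream of Epcam (12.1). Klf2, a factor of naive pluripotency, had 3.48 and 251, with a region of fold 7.85 at its start. Hsf2bp had 0.289 and 70.0. The regions of Hspb1, Ckb and Klf2 overlapped a Ctr9 peak of mESCs, and that of Epcam did not.

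Gene lists for fibroblast functions gave the following picture, beside the 9.21% of all genes with a TPM of at least 1 in either line that had a region nearest to them. Of 32 genes of the extracellular matrix, 14 had 35 regions, and all 14 were higher in NIH3T3 cells. So were 17 of the 18 without a region, and the median log2 difference was 6.23 with and 5.13 without one. Fn1 (406 and 75.7 TPM in NIH3T3 cells and mESCs), Thbs1 (275 and 0.201), Timp3 (255 and 2.10, with 5 regions) and Fstl1 (299 and 63.3, with 4 regions) were among the 14. Of 28 genes of actin and adhesion, 13 had 32 regions and 9 of these were higher, as were 12 of the 15 without, with median log2 differences of 1.51 and 2.08. Zyx (136 and 2.18), Tpm4 (615 and 73.8), Cald1 (126 and 11.2) and Lmna (191 and 33.1, with 6 regions) were higher, and Tagln2, Cnn3, Actn1 and Actn4 were within 2-fold. In these lists a higher level was the rule with and without a region.

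Growth factors and receptors had regions at 9 of 33 genes, of which 8 were higher, and of the 22 tested genes without a region 14 were higher and 5 lower (median log2 differences of 5.26 and 1.43). Besides Fgf7 and Tgfbr3 they were Csf1 (143 and 0.0714 TPM), Pdgfra (49.1 and 0.312), Hgf (47.8 and 0), Pdgfc, Il6st and Lif, and Hbegf was within 2-fold (19.5 and 34.9). Mesenchymal transcription factors had regions at 9 of 31, and 7 were higher, as were 16 of the 18 tested without a region (3.96 and 3.10). Prrx1, a homeobox factor of limb and skull mesenchyme, had 183 and 0.0669 TPM and a region of 7275 bp with a fold of 34.1. Twist2 had 59.3 and 0, Nfix 53.9 and 0.0465, Cebpd 28.0 and 0.863, and Runx1 11.5 and 0.358, whereas Foxp1 and Mef2d were within 2-fold. Of 16 targets of YAP and TEAD, 2 had a region nearest to them and both were higher. Ccn1, a matricellular protein, had 2 regions with a fold of up to 21.4 and TPM values of 139 and 5.32, and Amotl2 had 4 regions and values of 43.0 and 20.6. Of the 13 tested genes of this list without one, 8 were higher and 2 lower, and among them Lats2 overlapped the region assigned to Gm49361. Of 20 pluripotency genes, 18 had none. Klf4 had 3 regions and Klf2 had 1, and both genes were lower in NIH3T3 cells.

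The AP-1 and immediate early genes, which respond within minutes to serum and growth factors, had the highest share of genes with a region among these lists. Regions were nearest to 15 of 19 of these genes, 49 regions in all, of which 19 belonged to Myc. Of the 14 tested with a region, 8 were higher and 1, the phosphatase gene Dusp1, was lower (4.22 and 21.5 TPM). Of the 3 tested without one, 1 was higher and 2 were lower. Fosl1 had 106 and 0.287, Fosl2 74.6 and 1.14 with 5 regions, Ier3 105 and 3.16, Jun 55.2 and 3.25, and Egr1 73.6 and 15.9 with 5 regions. The Ctr9 peak at 3 of the Egr1 regions had a fold of 47.8. Fos had 4 regions, of which the strongest reached 33.0, yet its TPM was 3.27 and 2.73, and Fosb (3 regions) stayed below 1 in both lines. Of these regions, 1 of the 4 of Fos and none of the 3 of Fosb lay at the start of the gene.

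Clusters were formed by joining regions over the distance customary for super enhancers, and the widest gap joined was 12.4 kb. Of the 1977 regions, 1044 (52.8%) were in 388 clusters of 2 or more, and 933 were alone. The 29 clusters of 5 or more held 189 regions. The largest, with 13 regions, spanned 27.4 kb on chromosome 6 (31073624 to 31101018) at Lncpint, a long non-coding RNA gene induced by p53, with folds of up to 18.3. Lncpint had a TPM of 1.01 in NIH3T3 cells and was listed at 0 in mESCs. The second, with 10 regions over 23.6 kb on chromosome 19 (5794949 to 5818545) and folds of up to 23.2, covered Malat1 and ran upstream of it. Malat1 is an abundant nuclear RNA with a TPM of 112 in NIH3T3 cells and 24.5 in mESCs. The Fgf7 regions made up the next cluster. Another 2 clusters of 9 lay on chromosome 9 around Mir125b-1, in its host 3110039I08Rik (83.0 and 0.481 TPM), and on chromosome 16 at Vasn, which encodes the membrane protein vasorin (118 and 1.22), where Coro7 and Dnaja3 (19.6 and 38.4) overlap it. Then came 8 regions in Pvt1 beside Myc (9.42 and 4.11 TPM) and 7 each in or beside Hmga2, Tgfbr3, Acadvl with Dlg4, and Btg1.

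Non-coding genes were named after these values were seen, because the largest clusters lay in them. The summit of 211 regions (10.7%) lay in 152 long non-coding genes. Of the 50 with a TPM of at least 1 in either line, 35 (70.0%) were higher in NIH3T3 cells, beside 28.0% of 945 such genes, and 3 (6.0%) were lower, beside 32.6%. Pvt1 held 14 regions, 3110039I08Rik 12, Lncpint 9 and Lncppara 6. AL805899.1 held 3, with a TPM of 45.3 and 0.215. When each region was assigned to the coding gene that holds its summit in place of the nearest start, 443 of 1009 genes (43.9%) were higher.

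Of the 8 fragments that the study cloned as positive for both marks in NIH3T3 cells only, 5 (regions 1, 2, 3, 5 and 8) held 7 of the regions described here. Their strongest peaks had H3K27ac folds of 28.2, 26.0, 35.1, 26.3 and 46.5, and Ctr9 folds of 3.45, 4.80, 5.77, 5.73 and 17.1 in this order. All 5 were thus in the strongest quintile by H3K27ac, while 4 of the 5 Ctr9 values were below 6. Of their nearest coding genes, Mon2 (22.9 and 8.06 TPM in NIH3T3 cells and mESCs) and Spaca6 (16.8 and 1.06) were higher, Wdr89 had 5.53 and 9.93, and 1700011L22Rik and Ppara were below 1 in both lines. Region 4 met no peak of the lists at the coordinates used, and regions 6 and 7 held peaks that overlapped mESC H3K27ac and were not included. The 8 fragments cloned as free of Ctr9 held NIH3T3-only H3K27ac peaks and no Ctr9 peak, with highest folds of 13.8 to 25.8.

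The sequence around the summits was searched on both strands for short cores of known factors. TGANTCA (AP-1) was present in 132 of the 300-base stretches (6.68%, 5.62% to 7.87%), beside 7.66% of all H3K27ac summits of both lines, 9.02% (8.66% to 9.39%) of NIH3T3-only peaks without Ctr9 and 7.81% of RefSeq promoters of GRCm38 of the same length. Away from gene starts it was present in 7.94% of the regions and in 10.2% of NIH3T3-only peaks without Ctr9, and at gene starts in 3.72%. Searched over whole peaks, the order was reversed, with 23.4% of the regions and 15.5% of NIH3T3-only peaks without Ctr9, whose median widths were 634 and 390 bp. GGAATG (TEAD) was found in 13.3% and 15.8% of the 2 kinds (14.7% of promoters), TGTGGT (RUNX) in 18.7% and 19.5% (16.8%) and CATTGT (SOX) in 11.0% and 11.9% (12.6%). GGGCGG (KLF and SP) was found in 19.7% and 14.1% (35.6%), and in 52.7% of the shared peaks with Ctr9. At gene starts it was found in 42.1% of the regions and 37.0% of NIH3T3-only peaks without Ctr9, and elsewhere in 10.2% and 7.88%. TTGCNNAA (C/EBP) was found in 9.26% and 10.4% (10.8%). The other 8 patterns were each found in fewer than 2% of the regions. They were TGACGTCA (CRE) in 8 regions and 1.79% of promoters, CCGGAAGT (ETS) in 10 and 3.89%, the NRF1 site in 2 and 0.966%, ATGCAAAT (octamer) in 18 and 1.74%, TCAAGGTCA (ESRRB) in 9 and 0.424%, the CArG box in 31 and 1.63% and the CTCF core in 7 and 0.558%. The NFI palindrome was found in 0 of 1977 regions, where a floor of 3 counts allows a share of up to 0.152%, and in 0.0366% of promoters. These counts are matches of letters, not of bound factors.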

How the data were processed

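Per the study's methods and notes, the ChIP-seq libraries were mapped to mm10 with bowtie2 (2.3.5.1), blacklisted regions (ENCODE) were taken out, and macs2 (2.2.6) was run on each library by itself with 0.01 as the limit on q. In the deposited lists, fold enrichment is the authors' ratio of summit pileup to background, −log10 p and −log10 q-values refer to that summit as well, and the authors' score column is a scaled −log10 q. Read counts are not in the lists, so the ChIP-seq depth reached is unknown, and the study gives only the depth it aimed for. RNA-seq was quantified against GENCODE M19 by kallisto (0.46.1), and the deposited tables hold TPM and estimated counts per transcript, the latter as the authors' tool gave them. These counts add up to 28849497 in NIH3T3 cells and 26400407 in mESCs. Each gene is represented by its most abundant transcript, as in the study's methods, and 21905 of 21938 protein-coding genes of GENCODE M21 were found by identifier. Differences are log2 of TPM + 1.

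Overlaps, gene places, nearest starts, motifs and intervals came from Python code (Python 3.11.15, SciPy 1.17.1, NumPy 2.4.6, pandas 2.3.3). Matplotlib 3.10.9 drew the plots. The overlap code was tested on simulated peaks. Motif searches covered 14 patterns. A place was taken by the first of gene start, gene end, exon, intron, other gene and intergenic that held the summit. Sequences are from RefSeq GRCm38. The regions, gene lists, markers and motifs were chosen with earlier results of these data known, and 2 listed genes (Ccn1 and Ccn2) were matched by their current symbols. Named genes were those nearest to the most regions (10), to the strongest regions (10), those 4-fold higher with the highest TPM (10), those lowest in NIH3T3 cells (5), listed genes with a region, genes at cloned fragments and the 3 largest clusters. 1 gene that this rule names is not reported here. Exceptions are the non-coding and overlapping hosts, the further clusters, and the peaks at the edge of the rule. The alternatives changed the q threshold, overlap, distances, windows, pseudocount, gene TPM and summary. The 3 input libraries and the luciferase values were not analysed here.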

Additional observations from a re-analysis of the deposited data

How the results depend on the processing

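The share of AP-1 matches, lower than in NIH3T3-only peaks without Ctr9 as reported, was higher over whole peaks. The log2 difference of Arhgap23 was -0.22 as reported and 0.48 with TPM summed over transcripts. No other value changed sign under an alternative. The number of regions was 1307 when at least 50% of the H3K27ac peak had to be covered by Ctr9, and between 1369 and 1544 under the other 3 rules, within 1.5 times of 1977. With a −log10 q of at least 5 in all lists, 34.7% of the regions lay at gene starts, the median fold was 8.96, the median width 737 bp and 684 regions were in clusters. With a Ctr9 summit required inside the peak, 35.6% lay at gene starts and 45.7% of the nearest genes were higher in NIH3T3 cells. A 2.5 kb window placed 46.4%, and the starts of all transcripts 43.6%, at gene starts. With no filter on TPM, 36.1% of nearest genes were higher (all genes 11.3%) and the median log2 difference was 0.41 (all genes 0). A 4-fold limit gave 23.6%. Regions at least 50% covered by Ctr9 gave 35.8% and 0.43, and the gene holding the summit gave 43.9% and 0.68. A margin of 1 kb to mESC H3K27ac gave 26.2% at gene starts, 49.9% higher genes, a median of 0.98 and 25.6% with mESC Ctr9. With mESC Ctr9 counted within 1 kb, the share was 38.9%. Means were 10.8 for fold and 951 bp for width. The median distance to the summit of the strongest overlapping Ctr9 peak was 238 bp. AP-1 matches were in 23.4% of whole peaks and in 9.76% of stretches around the Ctr9 summit. The 50% coverage and the 1 kb margin applied to shares and gene measures, the host gene and the q threshold for clusters were chosen after seeing the data. Another 15 alternatives moved these results by less than their counting error, or counts by less than 1.5 times. Of 70 alternatives for the log2 differences of named genes, 18 moved them beyond counting error and none reversed one that was at least 2-fold.

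No paired analysis was possible because each library was made once. The absence of mESC H3K27ac rests on a list of 1 library of unknown depth, and no difference between the lines can be set against replicate error. A peak in a covered gene body and a peak with a common summit count alike, and the nearest start need not be the gene a region acts on.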

Other observations

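The regions were unevenly spread over the chromosomes. Their density was highest on chromosome 19 with 1.82 per Mb (112 regions), chromosome 11 with 1.64 (200) and chromosome 15 with 1.46 (152), and it was 0.164 on chromosome X (28), with 0 regions on chromosome Y. As a share of the NIH3T3-only H3K27ac peaks of a chromosome, they made up 12.9% on chromosome 19, 11.1% on chromosome 15 and 9.77% on chromosome 11, and 3.75% on chromosome 12, 3.83% on chromosome 13 and 4.85% on chromosome 18. All Ctr9 peaks of NIH3T3 cells were densest on chromosomes 11 (17.4 per Mb), 19 (17.0) and 17 (15.7), with 14.4 on chromosome 15 and 5.0 on chromosome 12.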
